A study of Mus musculus with 9 samples.

Results

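The ligands and receptors of the tumour necrosis factor (TNF) superfamily were followed across 3 sorted mouse cell populations. The members were the genes whose symbol in the platform annotation begins with Tnfsf (ligand) or Tnfrsf (receptor) and a number, on probe sets annotated to a single gene. They numbered 29 of 19938 measured genes, 9 ligands and 20 receptors, and each had 1 such probe set. The rule itself did not use any measured level, although it was chosen with earlier results of these data known.

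Lymph node macrophages of the T cell zone (TZM), brain microglia and CD8a+ dendritic cells (DC) were compared, with 3 arrays labelled as biological replicates in each and 9 in all. All cells came from mice of the genotype CX3CR1 gfp+/-, so all populations, the DC included, had 1 allele of this chemokine receptor gene replaced by a fluorescent reporter. TZM were sorted as GFP-high, MertK+, CD11b+ and CD169-, microglia as GFP-high, CD11b+ and CD45+, and DC as CD8a+ cells that were CD64-, MHCII-high and CD11c-high. The labels give the lymph node as the tissue of the DC in the sample fields and the spleen in the sorting protocol, and they do not say whether animals were pooled. None of the 29 members was a sort marker.

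TNF superfamily ligands are mostly membrane proteins that act as trimers, and many are also shed. Their receptors carry cysteine-rich repeats outside the cell and signal inside it through TRAF adaptors, which lead to NF-kB, or through a death domain, which can lead to caspases. In lymph nodes the family is best known for T cell co-stimulation (OX40, 4-1BB, GITR, CD30, HVEM, DR3 and their ligands), for the survival of B cells and plasma cells (BAFF and APRIL with the receptors BAFF-R, TACI and BCMA), and for lymph node formation and bone (RANK and its ligand).

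Levels are log2 values after robust multi-array averaging (RMA), and a difference of 1 is a doubling on the linear scale. A gene was called higher or lower when limma's adjusted p was under 0.05 over all genes and the absolute log2 fold change was at least 1. No detection call was used here. As a guide, a population's mean was set beside the 95th percentile of 1178 odorant and vomeronasal receptor genes, which was 4.52 in TZM, 4.53 in microglia and 4.48 in DC. Above it lay 16 of 29 members in TZM, 19 in microglia and 19 in DC, against 59.1%, 58.6% and 59.1% of all genes. Probe sets differ in their response, so levels are compared between populations for the same gene only.

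The labels were checked against marker genes. All 8 macrophage markers measured lay above the silent-gene level in TZM and in microglia, against 5 of 8 in DC, where Mertk and Fcgr1 were not above it. All 7 microglia markers were above it in microglia, against 5 of 7 in TZM and 4 of 7 in DC. Sall1 was not above it in TZM or DC, while Tmem119 and P2ry12 averaged 9.18 and 9.80 in TZM. All 7 were called lower in TZM than in microglia. All 8 type 1 DC markers were above it in DC, against 7 of 8 in TZM and 4 of 8 in microglia. Xcr1 was not above it in TZM or microglia, while Clec9a and Flt3 averaged 4.81 and 5.81 in TZM. All 8 were called lower in TZM and in microglia than in DC. Between TZM arrays, the summed linear level of 7 neutrophil markers varied most, at 433, 1554 and 710 in replicates 1, 2 and 3. Between microglia arrays, Ttr (transthyretin, secreted by choroid plexus epithelium) was at 12.15, 5.48 and 11.83.

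**Figure D1:**
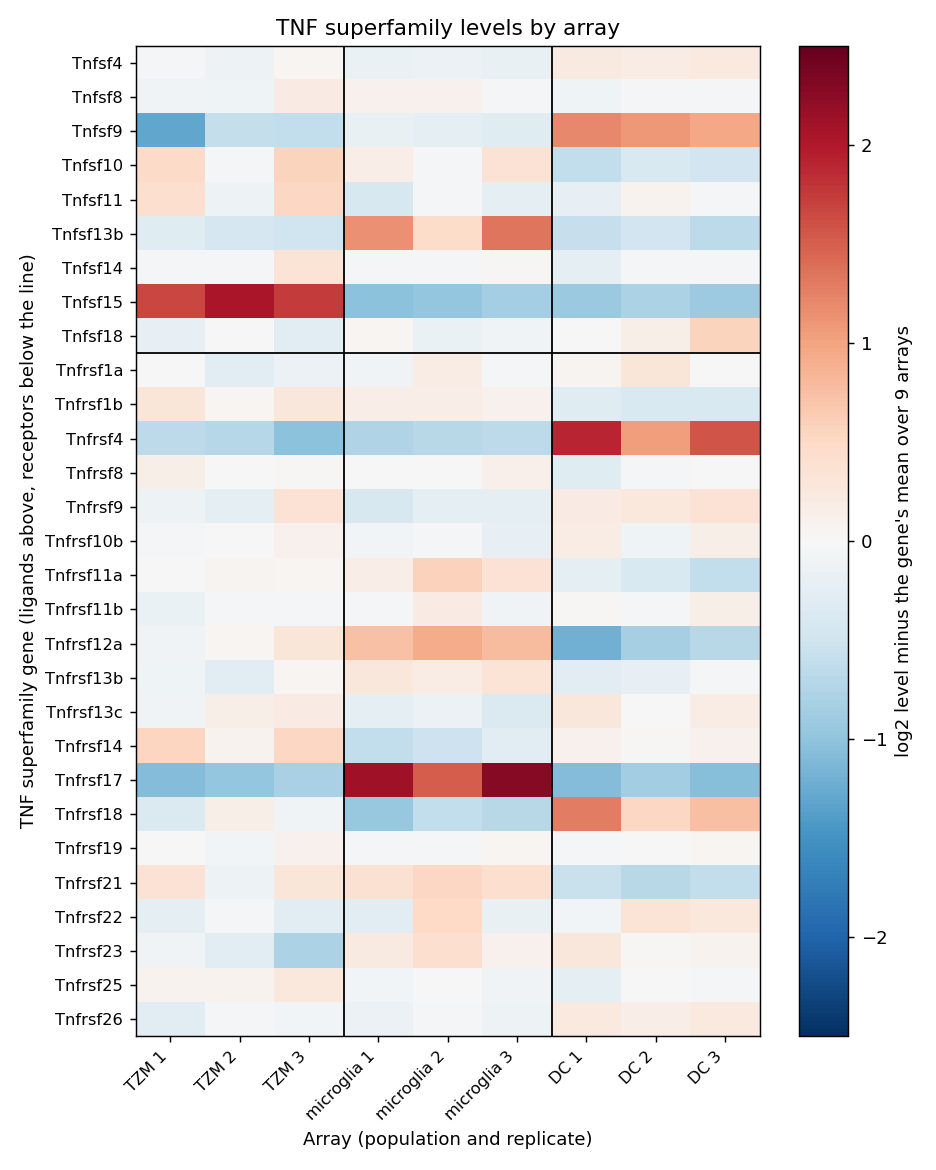
Levels of the 29 members on the 9 arrays, with ligands above and receptors below the horizontal line. Colour is the log2 level minus the gene's own mean over the 9 arrays. Tnfsf15 stands out in the 3 TZM arrays, Tnfrsf17 and Tnfsf13b in the 3 microglia arrays, and Tnfrsf4 and Tnfsf9 in the 3 DC arrays.

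Different family genes had their highest level in each population. The ligand Tnfsf15 was called higher in TZM against microglia and against DC, and the receptor Tnfrsf17 and the ligand Tnfsf13b were higher in microglia than in both others. The receptor Tnfrsf4 and the ligand Tnfsf9 were lower in TZM and in microglia than in DC, and the receptor Tnfrsf18 was called lower than in DC in microglia alone. Of these, Tnfsf15, Tnfrsf4 and Tnfrsf18 lay above the silent-gene level in all 3 populations. Tnfsf15 was close to that level in microglia (4.63) and in DC (4.70). There it lay under the 99th percentile of the odorant and vomeronasal receptor genes (5.62 and 5.58). Tnfrsf4 and Tnfrsf18 also lay under that percentile in TZM (5.58) and in microglia. In all, 8 members were called in at least 1 comparison, 3 ligands and 5 receptors, and 21 were called in none. The share of all genes called in at least 1 comparison was not counted, so these 8 have no background beside them. Shares for each single comparison are given below. The largest absolute log2 fold change among those 21 was 0.84.

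Between TZM and DC, 1 member was higher in TZM (Tnfsf15) and 2 were lower (Tnfrsf4 and Tnfsf9), so 10.3% of members were called against 8.74% of all genes (4.71% higher and 4.03% lower). Between TZM and microglia, 1 member was higher in TZM (Tnfsf15) and 2 were lower (Tnfrsf17 and Tnfsf13b), again 10.3% of members, against 7.65% of all genes (4.25% higher and 3.4% lower). Between microglia and DC, 4 members were higher in microglia (Tnfrsf17, Tnfrsf12a, Tnfsf13b and Tnfrsf21) and 3 were lower (Tnfrsf4, Tnfrsf18 and Tnfsf9). This was 24.1% of members, against 11.2% of all genes (5.15% higher and 6.01% lower). The 3 comparisons share arrays and are not independent of each other.

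The number called higher in TZM than in DC was 2 without TZM replicate 1, DC replicate 2 or DC replicate 3, when Tnfrsf12a passed the fold minimum (log2 fold change 1.04 to 1.11). It was 3 without TZM replicate 2, when Tnfrsf12a (1.01) and Tnfsf10 (1.02) passed it. With no minimum fold change, 11 members passed the test between TZM and DC, 8 between TZM and microglia and 16 between microglia and DC, against 20.2%, 19.4% and 25.1% of all genes. The median log2 fold change over the 29 members was 0.06, -0.02 and -0.02 in the same order of comparisons, and that of all genes was 0.02, 0.01 and 0.01. The median absolute log2 fold change was 0.30, 0.19 and 0.39 for the members and 0.13, 0.13 and 0.14 for all genes.

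**Figure D2:**
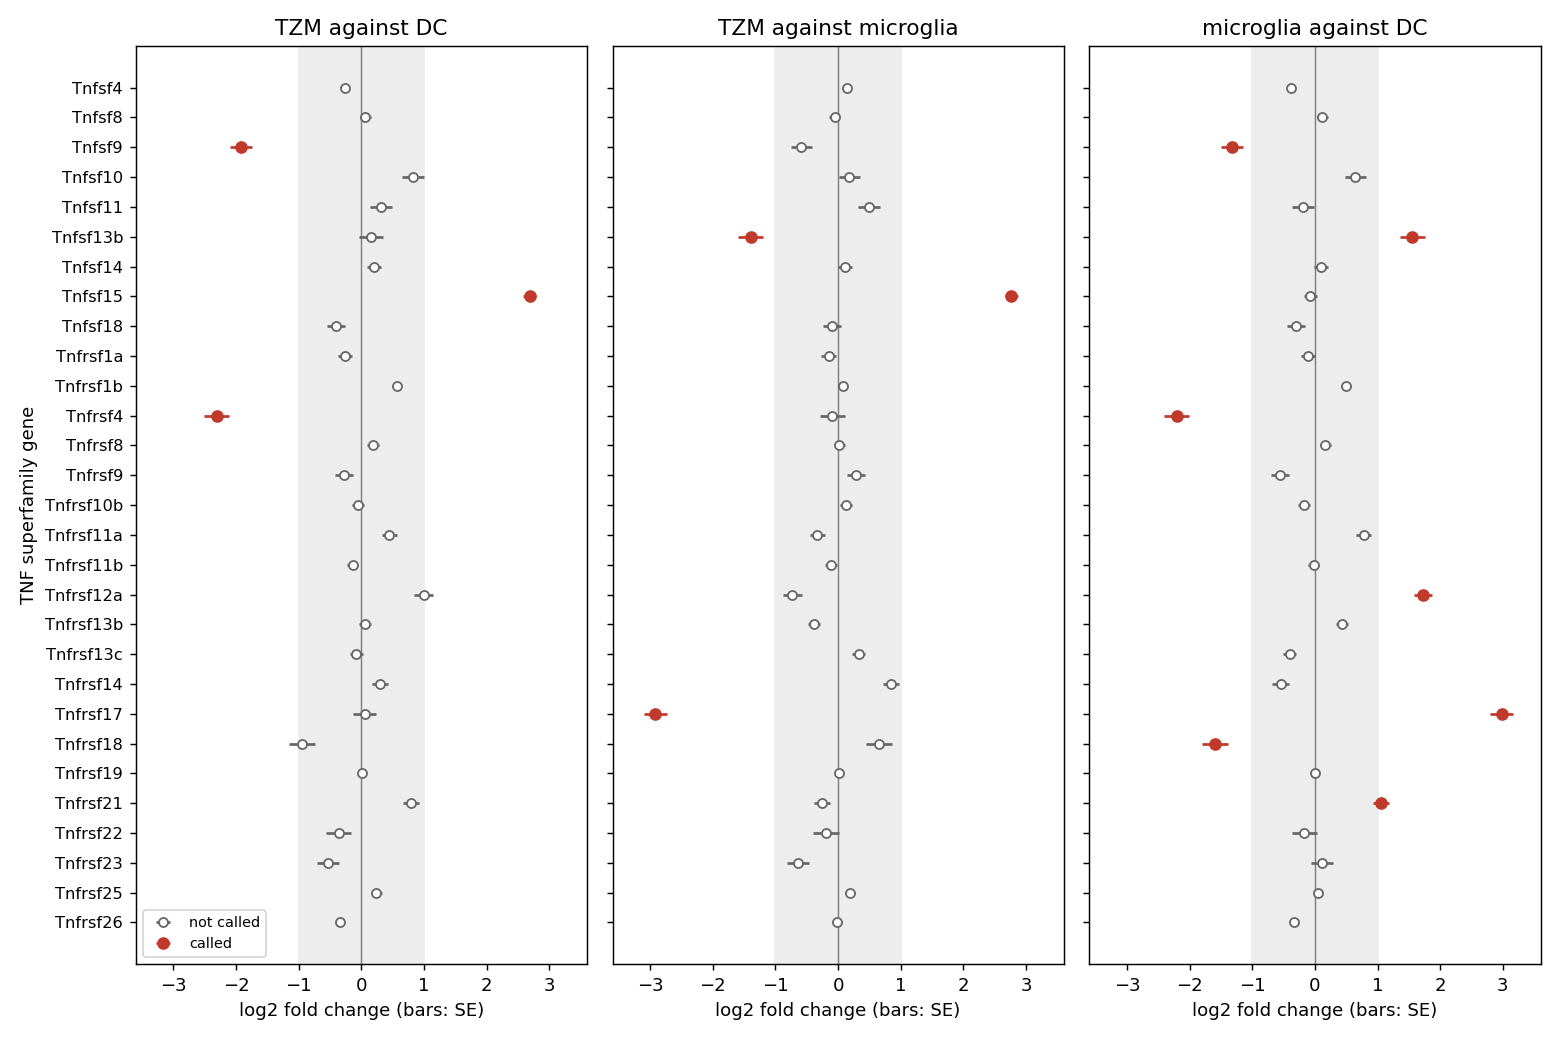
Log2 fold change of each member in the 3 comparisons, with the standard error as bars. Filled points were called, and the grey band spans the fold minimum of 1 in either direction. Tnfsf15 lies at 2.69 and 2.77 in the comparisons of TZM with DC and with microglia, and at -0.08 between microglia and DC.

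Tnfsf15 encodes TL1A, the ligand of the death domain receptor DR3, which co-stimulates T cells and innate lymphoid cells. It was at 7.24, 7.62 and 7.33 in TZM, against 4.55, 4.62 and 4.72 in microglia and 4.65, 4.79 and 4.67 in DC. All 3 TZM arrays lay more than 2 units above every array of the other populations, whose ranges overlapped. Tnfsf15 was higher in TZM than in DC by 2.69 (SE 0.10, adjusted p = 4.5e-07), a 6.46-fold difference on the linear scale, and higher than in microglia by 2.77 (SE 0.10, adjusted p = 4.8e-07). Between microglia and DC its log2 fold change was -0.08 (adjusted p = 0.70). Each array holds RNA of many cells, so more cells with a transcript and more transcript per cell cannot be told apart here.

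Marker lists of some other cell types also had larger sums in TZM than in both other populations. The neutrophil sum was larger in TZM than in DC, but against microglia the TZM arrays lay on both sides. Of the T cell list, 5 of 6 measured markers lay above the silent-gene level in TZM, and its summed linear level was 2376 to 2864 in TZM, 144 to 162 in microglia and 245 to 272 in DC. Most of the sum in TZM came from Cd4 and Cd28. Of its defining markers, Cd3d and Cd3e lay above that level in TZM and Cd3g did not in any population, while the TZM arrays of all 3 lay above the arrays of both other populations. Against microglia, Cd3d (1.20) and Cd3g (1.16) were called higher in TZM, and against DC none of the 3 passed the fold minimum. The endothelial list summed to 369 to 404 in TZM, 217 to 236 in microglia and 235 to 257 in DC, with 4 of 7 markers above the level in each population. Its defining marker Cdh5 was at 7.54, 7.66 and 7.75 in TZM. In microglia Cdh5 was at 5.15, 5.29 and 5.26, and in DC at 5.42, 5.49 and 5.21. It was higher in TZM than in microglia by 2.42 and than in DC by 2.28, and no other gene of this list was called in any comparison. The defining Pecam1 averaged 6.65 in TZM, 6.51 in microglia and 6.83 in DC, and Kdr was not above the level in any population. Of the B cell list, all 7 markers lay above the level in TZM, 3 in microglia and 4 in DC. It summed to 598 to 1287 in TZM, 311 to 484 in microglia and 326 to 381 in DC. Most of the sum in TZM came from Cd79b and Cd22. Its defining marker Ms4a1 averaged 4.82 in TZM, 4.03 in microglia and 7.11 in DC, and was called lower in TZM than in DC (-2.29). The other, Cd79a, was called higher in TZM than in microglia (1.11) and was not called against DC (0.79). The lymph node stroma list summed to 540 to 621 in TZM, 221 to 242 in microglia and 266 to 321 in DC, with 4 of 6 markers above the level in TZM, 4 in microglia and 3 in DC. Its gene Ccl19 was called higher in TZM against both, its defining markers Col1a1 and Col1a2 were called in no comparison, and Pdgfrb was not above the level in any population. The neutrophil list summed to 433, 1554 and 710 in TZM, to 1058 to 1118 in microglia and to 142 to 151 in DC, with 5 of 7 markers above the level in TZM, 2 in microglia and 3 in DC. Most of the sum in microglia came from Csf3r, which averaged 9.93 there, 7.71 in TZM and 4.51 in DC. The defining markers S100a8 and S100a9 of this list were called higher in TZM against both and were not above the level in microglia. Ly6g was not above the level in any population. Among TZM, the neutrophil sum and Tnfsf15 were both lowest in replicate 1 and highest in replicate 2. The part of these cells in the Tnfsf15 result was not tested. Over the 20 alternative settings, its log2 fold change against DC stayed between 2.58 and 2.77.

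The gene next to Tnfsf15 on chromosome 4, with no other protein-coding gene between them, is Tnfsf8, which encodes CD30 ligand. Tnfsf8 was at 3.39 ± 0.17 (SD, n = 3) in TZM, 3.44 ± 0.08 in microglia and 3.32 ± 0.05 in DC, under the silent-gene level throughout. The receptor of TL1A, Tnfrsf25, was at 4.88 ± 0.11 in TZM, 4.69 ± 0.04 in microglia and 4.64 ± 0.12 in DC and was called in no comparison. The 250 bases before the RefSeq start of Tnfsf15 (chr4:63745060-63745309, minus strand, GRCm38.p6) are shown because this gene sets TZM apart within the family. Nothing is in capitals, since none of the 4 motifs searched, given with the promoters further on, was in this window.
Tnfsf15: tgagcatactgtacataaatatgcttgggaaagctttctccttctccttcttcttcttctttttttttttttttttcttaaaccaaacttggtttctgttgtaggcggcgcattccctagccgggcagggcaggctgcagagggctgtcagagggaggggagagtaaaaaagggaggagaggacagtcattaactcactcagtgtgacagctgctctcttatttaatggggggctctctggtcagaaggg

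Tnfsf9 encodes the ligand of 4-1BB, a co-stimulatory receptor of activated T cells. It was at 3.77, 4.46 and 4.44 in TZM, at 4.87, 4.81 and 4.75 in microglia and at 6.26, 6.13 and 6.03 in DC. The populations did not overlap, with DC above microglia and microglia above TZM. Tnfsf9 was lower than in DC both in TZM (log2 fold change -1.91, SE 0.17, adjusted p = 7.8e-05) and in microglia (-1.33, SE 0.17, adjusted p = 0.00052). Between TZM and microglia the value was -0.59 (adjusted p = 0.048), under the fold minimum. Its receptor gene Tnfrsf9 was at 4.68 ± 0.32 in TZM, 4.40 ± 0.10 in microglia and 4.96 ± 0.08 in DC (SD, n = 3 each), with a log2 fold change of -0.56 between microglia and DC (adjusted p = 0.022).

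The genes of BAFF and of its receptor BCMA had their highest levels in microglia. The gene of the related ligand APRIL, Tnfsf13, is read by a probe set shared with other genes, which is no member and was higher in TZM than in microglia by 1.26 (adjusted p = 0.031). Tnfsf13b encodes BAFF, the B cell activating factor made by many myeloid cells. It was at 4.62, 4.50 and 4.42 in TZM, against 6.06, 5.39 and 6.27 in microglia and 4.36, 4.45 and 4.27 in DC. Every microglia array was above every TZM and DC array. Tnfsf13b was lower in TZM than in microglia (log2 fold change -1.39, SE 0.20, adjusted p = 0.0013), and it was higher in microglia than in DC by 1.55 (SE 0.20, adjusted p = 0.00047).

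Tnfrsf17 encodes BCMA, best known as a receptor for BAFF and APRIL on plasma cells. It was at 3.61, 3.71 and 3.87 in TZM, against 6.80, 6.19 and 6.96 in microglia and 3.59, 3.81 and 3.61 in DC. The TZM and DC arrays overlapped, under the silent-gene level, and all microglia arrays lay above them. The log2 fold change was -2.92 for TZM against microglia (SE 0.18, adjusted p = 1.0e-05) and 2.98 for microglia against DC (SE 0.18, adjusted p = 5.0e-06), and the difference from DC was 7.88-fold on the linear scale. Between TZM and DC it was 0.06 (adjusted p = 0.89).

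The other receptors of BAFF had smaller fold changes. Tnfrsf13b, which encodes TACI, was at 5.58 ± 0.15 in TZM, 5.96 ± 0.08 in microglia and 5.53 ± 0.12 in DC (SD, n = 3 each). Tnfrsf13c, which encodes BAFF-R, the main BAFF receptor of mature B cells, was at 6.35 ± 0.15 in TZM, 6.02 ± 0.11 in microglia and 6.43 ± 0.14 in DC. Neither was called in any comparison. Their log2 fold changes of microglia against DC were 0.44 (adjusted p = 0.0093) for Tnfrsf13b and -0.41 (adjusted p = 0.019) for Tnfrsf13c, in opposite directions.

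Because BCMA marks plasma cells, their markers and those of B cells were read on the same arrays. Of 6 plasma cell markers, 3 lay above the silent-gene level in TZM, 3 in microglia and 4 in DC, and their summed linear level was 301 to 372 in TZM, 381 to 445 in microglia and 288 to 296 in DC. Both defining ones, Jchain and Sdc1, were not above that level in any population. Prdm1, from the same list, was at 6.41, 6.10 and 6.48 in TZM, at 6.66, 6.49 and 6.71 in microglia and at 4.38, 4.48 and 5.08 in DC, and was higher in microglia than in DC by 1.97 (adjusted p = 6.8e-05). Among microglia it was lowest in replicate 2, as Tnfrsf17 was. Xbp1 averaged 7.45 in TZM, 7.83 in microglia and 7.43 in DC and was called in no comparison. The defining B cell markers Ms4a1 and Cd79a were not above it in microglia, where the B cell list summed to 314, 484 and 311. The part of such cells in the Tnfrsf17 result was not tested.

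Choroid plexus transcripts varied between microglia arrays along with both genes. The summed linear level of 5 choroid plexus markers was 98 to 131 in TZM, 4729, 138 and 3815 in microglia replicates 1, 2 and 3, and 92 to 113 in DC. Most of the sum in microglia replicates 1 and 3 came from Ttr. Of the defining markers of this list, Kl was not above the silent-gene level in any population and Ttr was above it in microglia alone. The other, Folr1, was above it in all populations and was at 5.45, 5.04 and 5.27 in microglia replicates 1, 2 and 3. The part of choroid plexus RNA in these results was not tested. Tnfrsf17 and Tnfsf13b were also lowest among microglia in replicate 2. Without replicates 1 and 3, an alternative added after the data were seen, Tnfrsf17 still had a log2 fold change of -2.46 for TZM against microglia. Tnfsf13b then had -0.87 (adjusted p = 0.0054), under the fold minimum. In such a fit the remaining microglia array is assumed to vary like the other populations.

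**Figure D3:**
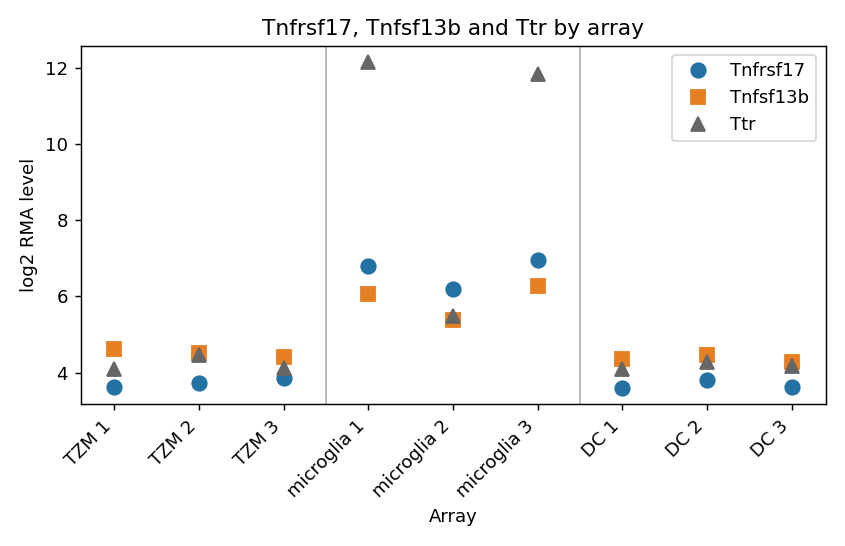
Log2 level of Tnfrsf17, Tnfsf13b and the choroid plexus gene Ttr on each of the 9 arrays. In microglia replicate 2, Ttr is at 5.48, Tnfrsf17 at 6.19 and Tnfsf13b at 5.39, each the lowest of the 3 microglia arrays.

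The promoters of Tnfsf13b (chr8:10006217-10006466, plus strand) and Tnfrsf17 (chr16:11313559-11313808, plus strand) are shown together because these genes were highest in the same population. They are the 250 bases before the RefSeq start in GRCm38.p6, and for Tnfsf13b the first of 2 listed starts. Capitals mark a TATA box (TATAAA), which lies 114 bases before the start of Tnfrsf17.
Tnfsf13b: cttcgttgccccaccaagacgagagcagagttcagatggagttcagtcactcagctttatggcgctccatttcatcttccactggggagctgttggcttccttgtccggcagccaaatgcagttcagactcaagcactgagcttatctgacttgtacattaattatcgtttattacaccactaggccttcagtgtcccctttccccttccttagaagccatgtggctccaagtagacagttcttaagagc
Tnfrsf17: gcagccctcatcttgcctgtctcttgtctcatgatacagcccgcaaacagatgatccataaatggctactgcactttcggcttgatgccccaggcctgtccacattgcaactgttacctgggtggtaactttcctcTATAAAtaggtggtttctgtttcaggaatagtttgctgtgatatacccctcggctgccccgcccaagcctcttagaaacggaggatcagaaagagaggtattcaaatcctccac

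Of the receptors of T cell co-stimulation among the members, Tnfrsf4 and Tnfrsf18 were called, with their highest levels in DC. Tnfrsf8, Tnfrsf9, Tnfrsf14 and Tnfrsf25, the gene of DR3, were not called. Tnfrsf4 encodes OX40, a receptor of activated T cells. It was at 5.30, 5.25 and 4.93 in TZM, at 5.20, 5.27 and 5.30 in microglia and at 7.86, 7.00 and 7.53 in DC. All DC arrays lay above all others, and the TZM and microglia arrays overlapped. Tnfrsf4 was lower than in DC in TZM (log2 fold change -2.30, SE 0.20, adjusted p = 5.8e-05) and in microglia (-2.21, SE 0.20, adjusted p = 5.4e-05).

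Tnfrsf18 encodes GITR, a receptor of regulatory and activated T cells. It was at 5.20, 5.71 and 5.48 in TZM, at 4.61, 4.95 and 4.86 in microglia and at 6.83, 6.07 and 6.32 in DC. The populations did not overlap, with DC above TZM and TZM above microglia. It was lower in microglia than in DC (log2 fold change -1.60, SE 0.21, adjusted p = 0.00047). In TZM against DC the log2 fold change was -0.94 (adjusted p = 0.012), under the fold minimum, and it passed without TZM replicate 2 (-1.07), without DC replicate 2 (-1.11) and with array weights (-1.01).

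The ligands of both receptors were at or near the silent-gene level. Tnfsf4, which encodes OX40 ligand, was at 3.50 ± 0.09 in TZM, 3.37 ± 0.02 in microglia and 3.76 ± 0.04 in DC. Tnfsf18, which encodes GITR ligand, was at 4.27 ± 0.14 in TZM, 4.36 ± 0.11 in microglia and 4.67 ± 0.29 in DC. Neither ligand was called in any comparison.

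T cells are the textbook source of OX40 and GITR, so their markers are given here too. The T cell list summed to 2376 to 2864 on the linear scale in TZM, 144 to 162 in microglia and 245 to 272 in DC, and in DC the defining markers Cd3d and Cd3g were not above the silent-gene level, while Cd3e was. Cd5 of this list averaged 5.08 in TZM, 5.17 in microglia and 5.76 in DC. The part of other cells in these results was not tested.

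Tnfrsf4 and Tnfrsf18 are neighbours on chromosome 4, with no other protein-coding gene between them and the same strand of transcription. Their promoters (chr4:156013445-156013694 and chr4:156026072-156026321, both plus strand, GRCm38.p6) are shown because these neighbouring genes had the same order of DC above the other populations. No searched motif was present, so nothing is in capitals.
Tnfrsf4: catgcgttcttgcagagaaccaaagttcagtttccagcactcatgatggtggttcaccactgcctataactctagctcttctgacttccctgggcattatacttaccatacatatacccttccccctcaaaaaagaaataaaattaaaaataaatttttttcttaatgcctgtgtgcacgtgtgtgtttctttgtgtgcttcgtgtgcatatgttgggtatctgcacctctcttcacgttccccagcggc
Tnfrsf18: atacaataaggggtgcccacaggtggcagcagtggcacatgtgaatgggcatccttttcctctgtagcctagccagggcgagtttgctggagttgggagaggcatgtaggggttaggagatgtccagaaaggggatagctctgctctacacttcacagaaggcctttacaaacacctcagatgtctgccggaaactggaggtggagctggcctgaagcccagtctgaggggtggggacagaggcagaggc

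A set of 4 motifs was searched on both strands in the same 250-base window of every listed promoter, and RefSeq sequences were found for 23 of the 29 members (27 promoters). The NF-kB consensus was in 2 of 27 member promoters (7.4%), those of Tnfrsf8 and Tnfrsf9, and in 3.9% of all 32851 promoters. The AP-1 motif TGANTCA was in 4 of 27 (14.8%), those of Tnfrsf8, Tnfrsf9, Tnfsf14 and the second listed start of Tnfsf13b, which is not printed above, and in 6.7% of all. The TATA box TATAAA was in 4 of 27 and in 12.4% of all, and the PU.1-IRF composite motif (GGAA, 2 bases of any kind, then GAAA) was in 0 of 27 and in 2.3% of all. No motif contains another. The motifs were chosen after the levels were known, and a match describes letters in a window, not a site.

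The receptors Tnfrsf12a and Tnfrsf21 were higher in microglia than in DC and were not called between TZM and microglia. Tnfrsf12a encodes Fn14, the receptor of TWEAK. It was at 6.87, 7.01 and 7.25 in TZM, at 7.69, 7.89 and 7.74 in microglia and at 5.75, 6.13 and 6.27 in DC. Its populations did not overlap, with TZM between the others. Tnfrsf12a was higher in microglia than in DC by 1.73 (SE 0.15, adjusted p = 3.9e-05), a 3.31-fold difference on the linear scale. Against DC the TZM value was 0.995 (adjusted p = 0.0015) and just missed the fold minimum, and against microglia it was -0.73 (adjusted p = 0.0085).

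Tnfrsf21 encodes DR6, a death domain receptor. It was at 9.12, 8.62 and 9.06 in TZM, at 9.14, 9.28 and 9.17 in microglia and at 8.21, 8.06 and 8.15 in DC. All arrays of both macrophage populations lay above all DC arrays. It was called for microglia against DC (log2 fold change 1.06, SE 0.13, adjusted p = 0.00029), and the value for TZM against DC was 0.80 (adjusted p = 0.0021), under the fold minimum. For TZM against microglia it was -0.26 (adjusted p = 0.22).

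**Figure D4:**
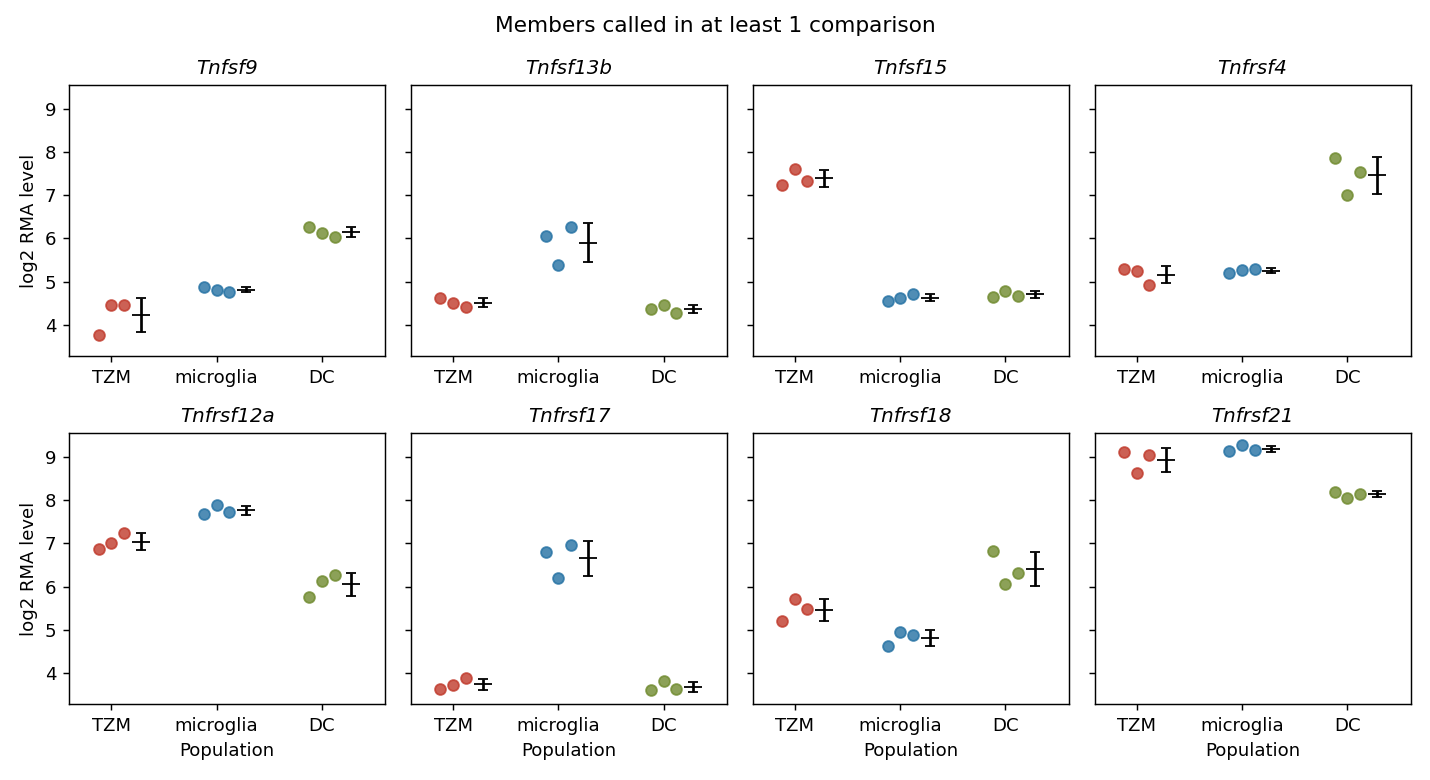
Log2 level of the 8 members called in at least 1 comparison. Coloured points are the 3 arrays of each population, and the black marks beside them give the mean and SD. Tnfsf15 averaged 7.40 in TZM, Tnfrsf17 averaged 6.65 in microglia and Tnfrsf4 averaged 7.46 in DC.

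The receptors of TNF itself had small fold changes. Tnfrsf1a, the death domain receptor of TNF found on most cells, was at 9.03 ± 0.14 in TZM, 9.18 ± 0.15 in microglia and 9.29 ± 0.16 in DC (SD, n = 3 each), with log2 fold changes of -0.26, -0.15 and -0.11 in the comparisons of TZM with DC, TZM with microglia and microglia with DC (SE 0.11 each). Tnfrsf1b, which has no death domain and binds TRAF2, was at 8.67 ± 0.14 in TZM, 8.60 ± 0.03 in microglia and 8.10 ± 0.04 in DC. Its log2 fold changes against DC were 0.57 in TZM (adjusted p = 0.00072) and 0.50 in microglia (adjusted p = 0.0012), under the fold minimum although the arrays did not overlap. Over the family, arrays of the compared populations did not overlap for 15 of 29 members between TZM and DC, 14 between TZM and microglia and 17 between microglia and DC, against 32.3%, 30.5% and 37.8% of all genes.

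Tnfrsf14, which encodes HVEM, a partner of LIGHT and BTLA, was at 8.37 ± 0.26 in TZM, 7.53 ± 0.17 in microglia and 8.07 ± 0.04 in DC, with a log2 fold change of 0.84 for TZM against microglia (adjusted p = 0.0024). Tnfrsf11a, which encodes RANK, the receptor that drives osteoclast formation, was at 6.57 ± 0.03 in TZM, 6.90 ± 0.20 in microglia and 6.12 ± 0.20 in DC, with 0.78 for microglia against DC (adjusted p = 0.0017). Its ligand gene Tnfsf11 was at 5.97 ± 0.35 in TZM, 5.48 ± 0.18 in microglia and 5.66 ± 0.15 in DC, with an adjusted p of 0.090 or more in each comparison. The decoy receptor for this ligand, Tnfrsf11b (osteoprotegerin), was at 4.50 ± 0.07 in TZM, under the silent-gene level there, and at 4.62 ± 0.15 in microglia and 4.64 ± 0.09 in DC.

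TRAIL is a ligand that can trigger apoptosis. Its gene Tnfsf10 was at 4.64, 4.10 and 4.71 in TZM, at 4.31, 4.09 and 4.50 in microglia and at 3.53, 3.78 and 3.67 in DC. Its means lay under the silent-gene level in all populations, and its log2 fold change for TZM against DC was 0.82 (adjusted p = 0.0091). Tnfrsf10b, the mouse death receptor for TRAIL, was at 3.91 ± 0.08 in TZM, 3.78 ± 0.10 in microglia and 3.96 ± 0.16 in DC. The decoy receptor genes Tnfrsf22 and Tnfrsf23, which lie side by side with Tnfrsf26 on chromosome 7, were at 4.93 ± 0.12 and 5.12 ± 0.37 in TZM, at 5.12 ± 0.42 and 5.76 ± 0.16 in microglia, and at 5.29 ± 0.22 and 5.64 ± 0.13 in DC. Both lay above the silent-gene level in all 3 populations. They are closely related in sequence, so shared hybridization was not tested. In TZM against microglia the log2 fold change of Tnfrsf23 was -0.64 (adjusted p = 0.034).

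The mean of 8 members lay under the silent-gene level in every population, namely the ligands Tnfsf4, Tnfsf8, Tnfsf10 and Tnfsf14 and the receptors Tnfrsf8, Tnfrsf10b, Tnfrsf19 and Tnfrsf26. Tnfsf14, which encodes LIGHT, was at 4.02 ± 0.21 in TZM, 3.91 ± 0.03 in microglia and 3.82 ± 0.11 in DC. Tnfrsf8, which encodes CD30, was at 3.88 ± 0.07 in TZM, 3.86 ± 0.06 in microglia and 3.69 ± 0.17 in DC. Tnfrsf19 (TROY) was at 4.22 ± 0.09 in TZM, 4.21 ± 0.04 in microglia and 4.21 ± 0.05 in DC. Tnfrsf26 was at 3.69 ± 0.12 in TZM, 3.71 ± 0.05 in microglia and 4.04 ± 0.04 in DC, with -0.34 for TZM against DC (adjusted p = 0.0097). Whether differences at such levels reflect transcript was not tested.

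By position, 9 of the 29 members lie on chromosome 4. Of these, Tnfsf15, Tnfrsf4 and Tnfrsf18 were called in some comparison. The genes Tnfsf8, Tnfrsf1b, Tnfrsf8, Tnfrsf9, Tnfrsf25 and Tnfrsf14 were called in none. No such count was made over all genes. Neighbours did not always share a pattern, as Tnfrsf1b and Tnfrsf8 have no protein-coding gene between them and only Tnfrsf1b lay above the silent-gene level.

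Some family genes go by other symbols. Of 15 such ligands and receptors, 0 were higher and 1 lower in TZM than in DC. Between TZM and microglia, 2 were higher and 1 lower in TZM, and between microglia and DC, 0 were higher and 2 lower in microglia. Over all genes, 8.74%, 7.65% and 11.2% were called in these comparisons. The median log2 fold change of the 15 was 0.03, 0.07 and -0.05, and that of all genes 0.02, 0.01 and 0.01. Tnf, which encodes the inflammatory cytokine itself, was at 8.28, 7.84 and 8.45 in TZM, at 10.62, 9.72 and 10.53 in microglia and at 9.56 in each DC array. Every TZM array lay below all others. The log2 fold change of Tnf was -2.10 for TZM against microglia (SE 0.24, adjusted p = 0.00037) and -1.37 for TZM against DC (SE 0.24, adjusted p = 0.0037).

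Fas and Cd40 separated the lymphoid populations from microglia. Fas, a death receptor, was at 7.86, 7.58 and 7.65 in TZM, at 4.74, 4.36 and 4.24 in microglia and at 6.97, 6.57 and 6.86 in DC. TZM were higher than microglia by 3.25 (SE 0.15, adjusted p = 1.9e-06), and microglia were lower than DC (-2.35, adjusted p = 7.7e-06). Cd40, the receptor through which T cells license antigen-presenting cells, was at 8.18, 8.16 and 8.39 in TZM, at 6.10, 6.15 and 6.03 in microglia and at 8.58, 8.39 and 8.38 in DC. It was higher in TZM than in microglia by 2.15 (SE 0.09, adjusted p = 7.2e-07) and its log2 fold change was -0.21 for TZM against DC (adjusted p = 0.15).

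Among 22 measured genes of TRAF and death domain signalling, 3 were higher and 2 lower in TZM than in DC (median 0.02, the same as for all genes). In TZM against microglia 4 were higher and 1 lower (median 0.17, all genes 0.01). In microglia against DC 1 was higher and 5 lower (median -0.07, all genes 0.01). Over all genes, the shares called in either direction were 8.74%, 7.65% and 11.2% in the same order of comparisons. Traf1, an adaptor induced by NF-kB, was at 7.02 ± 0.005 in TZM, 4.73 ± 0.07 in microglia and 9.02 ± 0.24 in DC (SD, n = 3 each), and its log2 fold change was -1.99 for TZM against DC (adjusted p = 3.55e-06) and 2.29 for TZM against microglia (adjusted p = 2.0e-06). The necroptosis genes Ripk3 and Mlkl were both higher in TZM than in DC, by 1.18 and 1.18 (adjusted p = 0.00014 and 2.8e-05). They were also higher in TZM than in microglia, by 2.24 and 1.29 (adjusted p = 3.4e-06 and 1.9e-05). Mlkl averaged 4.91 in TZM, against a silent-gene level of 4.52 there. It lay under the silent-gene level in DC (3.73) and in microglia (3.62).

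Other changes in this list ran both ways. Adam17, the protease that sheds TNF, was higher in TZM than in DC by 1.09 (adjusted p = 1.6e-05), and Traf3ip2, an adaptor of interleukin-17 receptors, was lower (-1.05, adjusted p = 0.0039) but had -0.97 without TZM replicate 2 and -0.83 without DC replicate 2, under the fold minimum. Tank, a TRAF-binding protein, was higher in TZM than in microglia by 1.98 (adjusted p = 1.5e-05). Casp8, the caspase of death receptors, was at 8.95, 9.24 and 8.40 in TZM and at 9.87, 9.63 and 10.18 in microglia (log2 fold change -1.03, adjusted p = 0.012), with -0.80 without TZM replicate 3, -0.89 without microglia replicate 3 and -0.77 without microglia replicates 1 and 3. Microglia were higher than DC in Casp8 (1.68) and lower in Traf1 (-4.28), Tank (-1.83), Ripk3 (-1.07) and the inhibitor of apoptosis genes Birc2 (-1.05) and Birc3 (-1.08). These last 3 calls depended on single arrays or on the processing. Ripk3 had -0.97 without microglia replicate 3 and -0.98 without DC replicate 1, Birc2 had -0.98 without microglia replicate 2 and -0.86 without DC replicate 1, and Birc3 had -0.78 without microglia replicate 2, each under the fold minimum. Birc2 also had -0.75 when its probe sets were averaged, and Birc3 had -0.99 with quantile normalization and -0.97 with array weights.

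Of 22 measured NF-kB genes, 1 was higher and 2 lower in TZM than in DC (median -0.25, all genes 0.02). In TZM against microglia 3 were higher and 2 lower (median -0.04, all genes 0.01). In microglia against DC 4 were higher and 2 lower (median -0.36, all genes 0.01). The shares of all genes called in either direction were 8.74%, 7.65% and 11.2% in the same order of comparisons. The genes called higher in microglia than in DC were Nfkbiz at 2.36 (adjusted p = 3.7e-06), Tnfaip3 at 1.81 (adjusted p = 5.8e-07), Nfkbia at 1.64 (adjusted p = 7.4e-05) and Nfkbid at 1.21 (adjusted p = 0.0056). Elsewhere in the list values ran both ways, with Tnip1 at -0.86, Cyld at -0.84, Nfkbie at -0.64 and Nfkbib at 0.13, none of these called. Tnfaip3, which encodes the deubiquitinating enzyme A20, was also higher in TZM than in DC, by 1.31 (adjusted p = 5.9e-06). Without microglia replicates 1 and 3 the call of Nfkbid against DC ended (adjusted p = 0.13). Nfkbiz and Nfkbid were lower in TZM than in microglia (-2.05 and -1.84).

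The kinase gene Map3k14 (NIK), which the OX40, BAFF and CD40 receptors use in the non-canonical pathway, was at 6.11 ± 0.16 in TZM, 6.40 ± 0.07 in microglia and 7.49 ± 0.09 in DC (SD, n = 3 each). It was lower than in DC in TZM (-1.38, adjusted p = 1.1e-05) and in microglia (-1.08, adjusted p = 3.5e-05). Rel, the NF-kB subunit c-Rel, was lower in TZM than in DC (-1.03, adjusted p = 0.00088) and had -0.99 without DC replicate 1. Nfkb2, Tnip1 and Bcl3 were higher in TZM than in microglia, by 1.24, 1.33 and 2.15 (adjusted p = 0.00024, 9.0e-05 and 0.0026). The Bcl3 call ended without microglia replicates 1 and 3 (2.04, adjusted p = 0.055). Bcl3 was lower in microglia than in DC (-1.19, adjusted p = 0.036), a call that ended without any single DC array, without microglia replicate 2 or 3 and without TZM replicate 3 (adjusted p = 0.052 to 0.12), with every probe set tested (0.054) and without microglia replicates 1 and 3 (0.24).

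**Figure D5:**
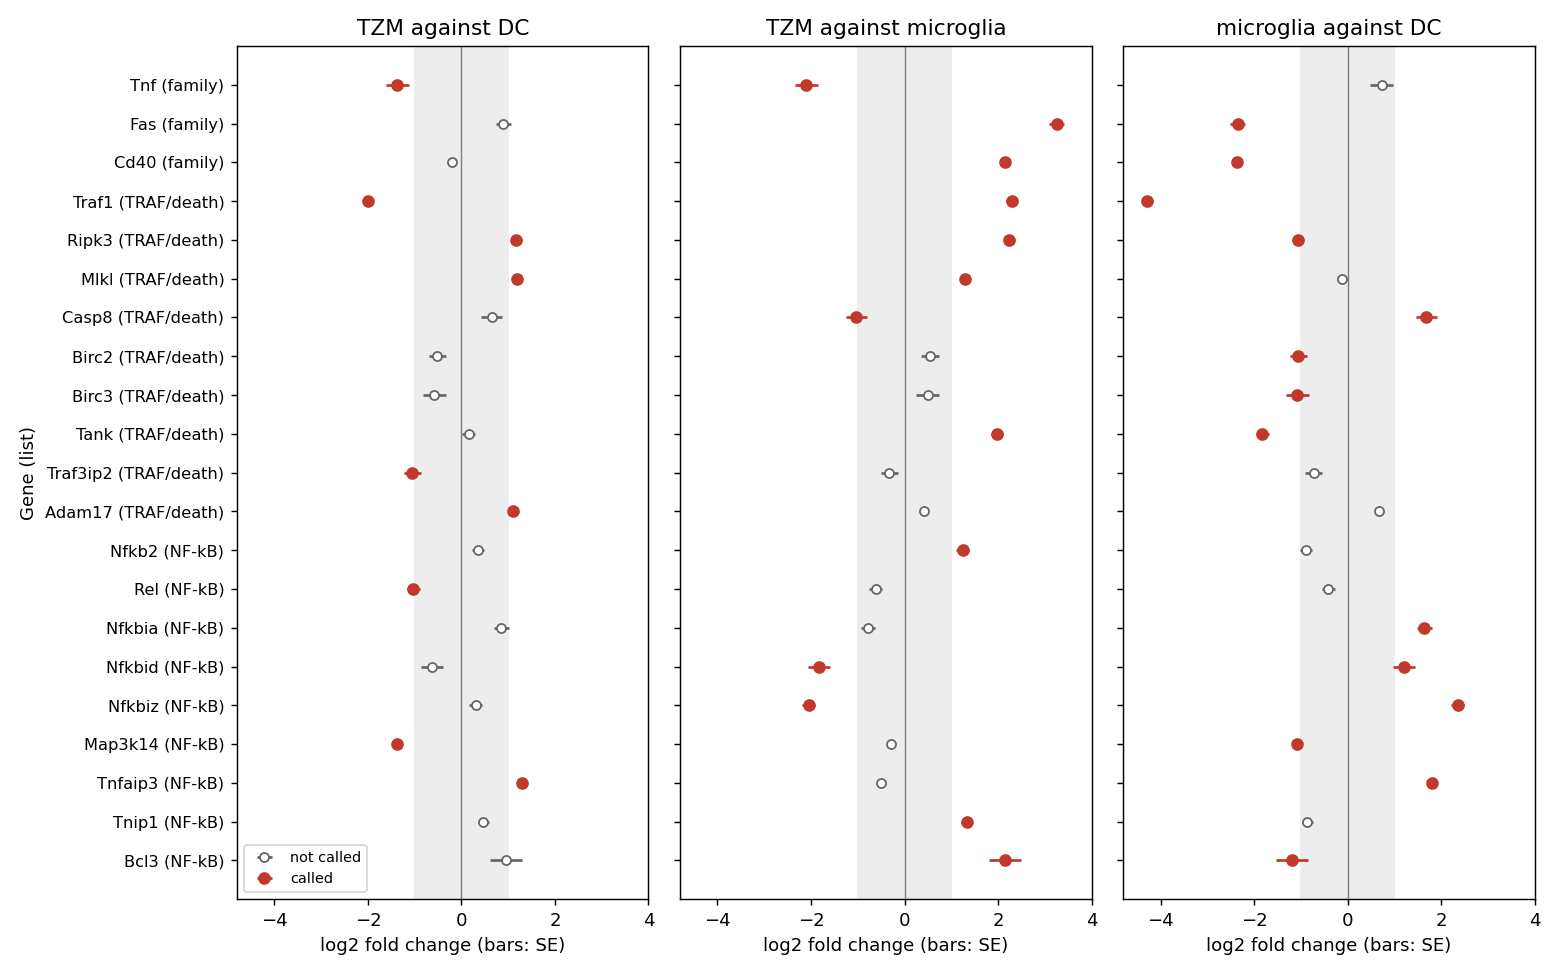
Log2 fold change with standard error for the genes of the 3 related lists that were called in at least 1 comparison, on the same axis in each panel. Filled points were called and the grey band spans the fold minimum of 1. Tnf lies at -2.10 and Fas at 3.25 in the comparison of TZM with microglia.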

How the data were processed

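RNA of 3 sorted populations was measured on Affymetrix mouse gene arrays, 3 arrays each. Expression was deposited by the authors as log2 values, made with Affymetrix Expression Console 1.3.1 and RMA, per the submitters' processing notes, and ran from 2.04 to 13.6. RMA gives all arrays a common distribution and compresses low levels, which shrinks fold changes against them. Precision is limited by the 3 arrays in each population.

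Of 35556 probe sets, 21789 had 1 gene symbol, 1621 several and 12146 none in the platform annotation. The brightest single-symbol probe set of each gene was kept (19938 genes). All 9 arrays entered 1 fit of limma 3.58.1 (R 4.3.3), with Benjamini-Hochberg adjustment over all genes, and the procedure was tested on simulated data. Members and lists were chosen with earlier results of these data known. Values are given by array for members called in at least 1 comparison, and as mean and SD for the others. Members under the silent-gene level, and the arrays of Tnfsf10, Cd40, Fas, Tnf and Casp8, were added after their values were seen. In the 3 related lists, up to 6 called genes per comparison are named by size of change. Names, neighbours and promoter sequences are from RefSeq (GRCm38.p6), and all 29 members matched. List genes without a single-symbol probe set, such as Traf3, Ripk1, Nfkb1 and Chuk, were not analysed here. P-values measure the spread between the arrays labelled as biological replicates.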

Additional observations from a re-analysis of the deposited data

Results flagged for a closer look

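A probe set annotated to 3 genes at once, Tnfsf12, Tnfsf13 and Tnfsfm13, was outside the tests above because it names no single gene. It was at 8.14, 7.12 and 8.28 in TZM, at 6.59 in each microglia array and at 5.80, 5.19 and 5.89 in DC. In the fit over every probe set it was higher in TZM than in DC by 2.22 (SE 0.31, adjusted p = 0.0022) and higher in TZM than in microglia by 1.26 (adjusted p = 0.031). Which of the 3 transcripts gave the signal cannot be told apart.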

How the results depend on the processing

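The 13 called member differences were recomputed under 20 alternative settings, 19 planned and 1 added after the data were seen. Of 258 resulting values 257 kept direction and call, the exception being Tnfsf13b in TZM against microglia, given above. Part of this count was fixed in advance. Dropping the fold minimum cannot end a call. Leaving out an array of the population not compared keeps the fold change and can alter only the adjusted p. With no minimum fold change, the members called higher and lower were 6 and 5 for TZM against DC, 2 and 6 for TZM against microglia and 8 and 8 for microglia against DC. All genes called then were 4025, 3873 and 5006 (1743, 1526 and 2224 with the minimum), and genes of the 3 related lists 20, 25 and 31 (9, 13 and 14 with it). With every probe set tested, 2333 and 3440 were called for TZM against microglia and microglia against DC, as more features were tested. With a level of at least 6 in at least 3 arrays, 12 of 29 members remained in the test and 1 was called lower in TZM than in microglia, since Tnfsf13b was left out. Without microglia replicates 1 and 3 this count was also 1. Leaving out 1 array at a time gave 1 to 3 members higher in TZM than in DC. Same-numbered arrays did not deviate together (correlations of -0.15 to 0.13 over 9 pairs), and with the replicate block 1 member was higher and 2 lower for TZM against DC, 1 and 2 for TZM against microglia and 4 and 3 for microglia against DC, as without it. The block moved all genes called to 1732, 1510 and 2213, and ended the Bcl3 call for microglia against DC (adjusted p = 0.066). With no detection call, no lower limit of measurement can be set for members near the silent-gene level.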

Other observations

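The deposited value of Tnf was the same, 9.5621, in all 3 DC arrays, so its spread there comes out as 0. Its test pools the spread of the 3 populations, and the DC arrays enter with this 0, which lowers the pooled estimate. Very small spreads also entered for Traf1 (SD 0.005 in TZM) and for the probe set annotated to 3 genes (SD 0.0002 in microglia). Each pair of arrays of the same population had identical values for 984 to 1358 genes. Counted at the 99th percentile of the odorant and vomeronasal receptor genes in place of the 95th, 10 members in TZM, 11 in microglia and 12 in DC lay above it.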
